A study of Homo sapiens with 6 samples.

Results

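The genes described here belong to the enteroendocrine programme of the gut. They comprise the transcription factor genes NEUROG3, PROX1, NEUROD1, INSM1 and PAX4, the secretory granule genes CHGA, CHGB and SCG5, and the hormone genes GCG and PYY. They were taken by symbol from the platform's annotation, which lists a probe set for 8 of the 10, each with 1 probe set, among 14812 named genes. NEUROD1 and PAX4 have no listed probe set and were not analysed here. The set was chosen by measured values: NEUROG3 and PROX1 had been seen among the highest genes with MYU siRNA, so their values in that pair are a description and support nothing.

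Affymetrix arrays measured total RNA of LS180, an established human colorectal adenocarcinoma cell line, after siRNA transfection. The arrays form 3 pairs. The siCTNNB1 array (siRNA against CTNNB1, the gene of beta-catenin), the siMYC array (siRNA against the transcription factor MYC) and the siMYU array (siRNA against MYU, a long non-coding RNA with the gene symbol VPS9D1-AS1) each stand against a control siRNA array named for them in its title. The control titles of the siCTNNB1 and siMYC pairs carry the same number, and whether these are the same hybridisation is not known. The treatment tag of the siCTNNB1 array names CTNNB2 where its title gives CTNNB1.

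Each knockdown has 1 array on either side, so the spread between replicates is unknown and p-values cannot be had. The deposited values keep only the difference within a pair. Every value below is therefore a log2 difference of a knockdown array minus the control array of its pair (log base 2 assumed), and "higher" and "lower" describe these arrays alone. Levels are not in the values, so it cannot be said whether LS180 cells expressed an enteroendocrine gene at all, nor could markers be used to check the cell line. The middle 95% of all 14812 genes spanned -1.26 to 1.06 in the siCTNNB1 pair, -0.66 to 0.56 in the siMYC pair and -0.46 to 0.40 in the siMYU pair. This is a spread across genes, not an error of measurement. Of the targeted transcripts, MYC differed by -1.18 with siMYC and VPS9D1-AS1 by -0.50 with siMYU, while CTNNB1 has no listed probe set. In the other pairs MYC was at -2.38 with siCTNNB1 and 0.04 with siMYU. VPS9D1-AS1 was at -0.53 with siCTNNB1 and -0.24 with siMYC, so a value below 0 was not particular to siMYU. Its place among all genes differed: 1.96% lay below it with siMYU, 11.1% with siCTNNB1 and 13.6% with siMYC. Only with siMYU was it outside the middle 95%.

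Enteroendocrine cells are the scattered hormone-secreting cells of the intestinal epithelium. They arise from crypt progenitors in which Notch signalling is low: the basic helix-loop-helix (bHLH) factor ATOH1 opens the secretory fate, and NEUROG3 then commits a cell to the endocrine lineage. NEUROD1, INSM1 and PAX4 act after NEUROG3, and the mature cell stores its peptides in dense-core granules with chromogranins. PROX1 is a homeobox factor best known for specifying lymphatic endothelium. In the mouse intestine it marks enteroendocrine cells, and in colorectal tumours it has been described as a target of Wnt signalling.

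Promoter windows are shown for the member with the highest siMYU value, so that this factor can be set beside products. The products shown are the granule gene CHGA (-0.13 with siMYU) and the hormone gene GCG (0.00). The sequences are from RefSeq, build GRCh38.p14, and run 5′ to 3′ on the gene's strand from 250 bases before to 50 bases after its annotated start. Of the 8 measured members 5 are in that table: NEUROG3, CHGA, SCG5, GCG and PYY. NEUROG3 lies at chr10:69573373-69573672 on the minus strand, CHGA at chr14:92922900-92923199 on the plus strand and GCG at chr2:162152198-162152497 on the minus strand. Capitals mark matches, on either strand, to CANNTG (the E-box read by bHLH factors, which includes CACGTG, the form bound by MYC), CTTTGAA or CTTTGAT (the TCF/LEF site of Wnt signalling), TGACGTCA (the cAMP response element), TATATA and CCAAT.
NEUROG3: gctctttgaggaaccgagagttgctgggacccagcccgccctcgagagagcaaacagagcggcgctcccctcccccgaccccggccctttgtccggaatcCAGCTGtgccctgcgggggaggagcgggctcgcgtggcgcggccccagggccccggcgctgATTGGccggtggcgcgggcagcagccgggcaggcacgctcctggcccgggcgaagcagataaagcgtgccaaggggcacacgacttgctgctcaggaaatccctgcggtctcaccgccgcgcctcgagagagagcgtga
CHGA: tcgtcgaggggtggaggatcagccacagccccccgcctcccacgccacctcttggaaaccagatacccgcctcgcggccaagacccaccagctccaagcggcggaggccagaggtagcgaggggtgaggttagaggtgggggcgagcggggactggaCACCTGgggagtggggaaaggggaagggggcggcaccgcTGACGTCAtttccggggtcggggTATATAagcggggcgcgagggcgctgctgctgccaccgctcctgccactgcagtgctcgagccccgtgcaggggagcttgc
GCG: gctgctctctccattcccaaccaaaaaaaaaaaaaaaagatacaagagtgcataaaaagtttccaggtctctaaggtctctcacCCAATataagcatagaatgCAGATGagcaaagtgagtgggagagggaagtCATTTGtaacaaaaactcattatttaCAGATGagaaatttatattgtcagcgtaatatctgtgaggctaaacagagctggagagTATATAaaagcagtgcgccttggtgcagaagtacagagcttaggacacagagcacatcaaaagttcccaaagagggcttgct

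The NEUROG3 window held 1 E-box and 1 CCAAT match, the CHGA window 1 E-box, 1 cAMP response element and 1 TATATA match, and the GCG window 3 E-boxes, 1 CCAAT and 1 TATATA match. An E-box occurs in 68.7% of 35093 promoters of this length, CCAAT in 34.6%, TATATA in 3.99% and TGACGTCA in 1.85%. CACGTG, held by 7.26% of promoters, and the TCF/LEF letters, held by 6.86%, had 0 matches in all 3 windows. The GC content was 71.0% for NEUROG3, 69.3% for CHGA and 40.0% for GCG, against a median of 58.7% over all promoters. These are matches of letters in a short window and say nothing of binding.

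The siMYU pair shows which transcripts differed after MYU was targeted. NEUROG3 stood 2.11-fold higher and PROX1 2.08-fold higher in the siMYU array than in its control. The other 6 measured members lay between -0.13 and 0.03, well inside the middle range of all genes. The pair thus showed high values for 1 early lineage factor and for PROX1, and values near 0 for the later factor INSM1, for the granule genes and for the hormones. Of the 8 measured members 2 were at least 2-fold higher and 0 were 2-fold lower, against 0.0608% and 0.0945% of all genes. The choice of the set used these same values, so nothing is read from that share.

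NEUROG3 had a centred value of 0.54 in the siMYU array and -0.54 in its control array, a difference of 1.08. It had rank 4 from the highest of 14812 genes. PROX1 had centred values of 0.53 in the siMYU array and -0.53 in its control, a difference of 1.06 and rank 6. Between them lay ARL6IP5 at 1.07, and 9 genes in all were 2-fold higher. Just short of 2-fold were SNHG16 at 0.95 and CD70 at 0.94, so NEUROG3 and PROX1 sat narrowly above that line.

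INSM1, a zinc-finger factor that acts after NEUROG3 in endocrine cells, differed by -0.02 with siMYU. CHGA, which encodes the granule protein chromogranin A and is a general marker of endocrine cells, had the lowest value of the 8, -0.13, and 17.6% of all genes lay below it. CHGB, the gene of the related chromogranin B, was at -0.01. SCG5, which encodes a chaperone of the prohormone convertase PCSK2, was at 0.03. GCG, the precursor gene of glucagon and of the incretin GLP-1, was at 0.00. PYY, the gene of the satiety hormone peptide YY, was at -0.03. Of these 6 genes 4 were below 0 and 2 above it.

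**Figure D1:**
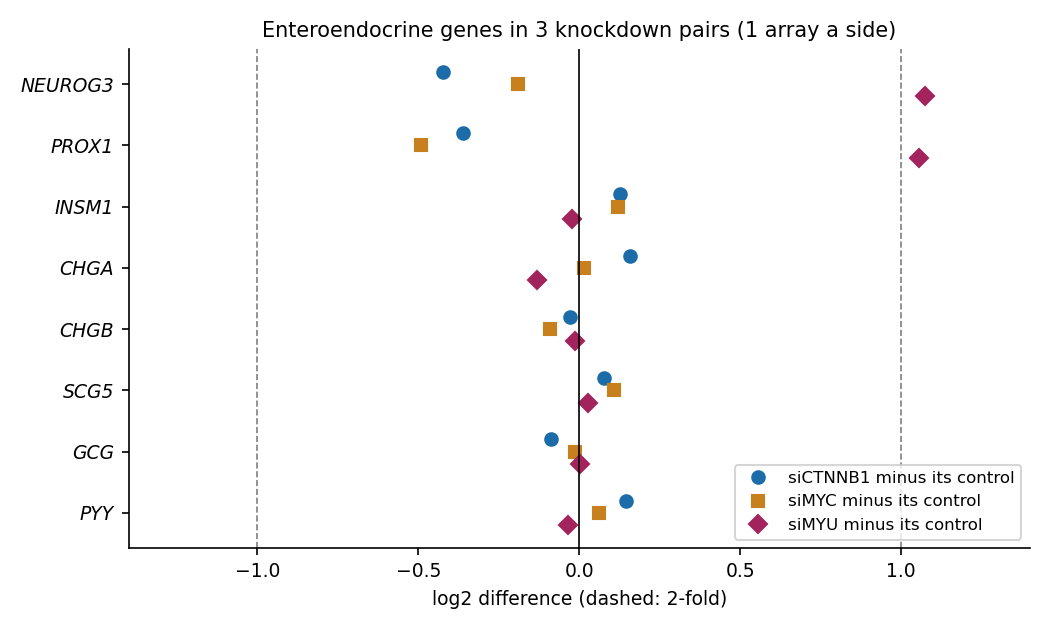
Log2 difference, knockdown minus its own control array, for the 8 measured enteroendocrine genes. Symbols mark the siCTNNB1, siMYC and siMYU pairs, each point is 1 pair of arrays, and dashed lines mark 2-fold. NEUROG3 and PROX1 lie at 1.08 and 1.06 with siMYU and below 0 in the other pairs, while the other 6 genes lie between -0.13 and 0.16 in every pair.

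The siCTNNB1 pair asked what differs when beta-catenin is targeted. Here NEUROG3 and PROX1 had the lowest values of the 8 genes. NEUROG3 was at -0.42, or 1.34-fold lower in the siCTNNB1 array, with centred values of -0.21 in that array and 0.21 in its control. PROX1 was at -0.36, or 1.29-fold lower, with centred values of -0.18 in the siCTNNB1 array and 0.18 in its control. These values are moderate for this pair, since 13.7% of all genes lay below NEUROG3 and 15.6% below PROX1. At 2-fold, 0 of the 8 measured members were higher and 0 lower, against 2.80% and 4.14% of all genes.

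The granule and hormone genes stayed close to 0 in that pair. CHGA was at 0.16, the highest of the 8, PYY at 0.14 and INSM1 at 0.13. SCG5 was at 0.08, CHGB at -0.03 and GCG at -0.09. Of 14 enterocyte markers measured in the same arrays 7 were at least 2-fold higher and 0 lower, against 2.80% and 4.14% of all genes, with a median of 0.64. Of 13 goblet, Paneth and tuft markers 3 were 2-fold higher and 0 lower, with a median of 0.22. The 3 were the goblet genes SPDEF (2.24), TFF3 (1.89) and AGR2 (1.29), while the enterocyte marker CA4 was at -0.18 and the Paneth cell gene LYZ at -0.23. The median of all genes was 0.00.

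The siMYC pair asked the same of MYC. PROX1 was at -0.49, or 1.41-fold lower in the siMYC array, with centred values of -0.25 in that array and 0.25 in its control, and 5.23% of all genes lay below it. NEUROG3 was at -0.19, with 16.8% of genes below it and centred values of -0.09 in the siMYC array and 0.09 in its control. PROX1 was therefore the lower of the pair of factors with siMYC, and NEUROG3 the lower with siCTNNB1. INSM1 was at 0.12, SCG5 at 0.11, PYY at 0.06, CHGA at 0.02, GCG at -0.01 and CHGB at -0.09. At 2-fold, 0 of the 8 members were higher and 0 lower, against 0.412% and 0.446% of all genes.

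**Figure D2:**
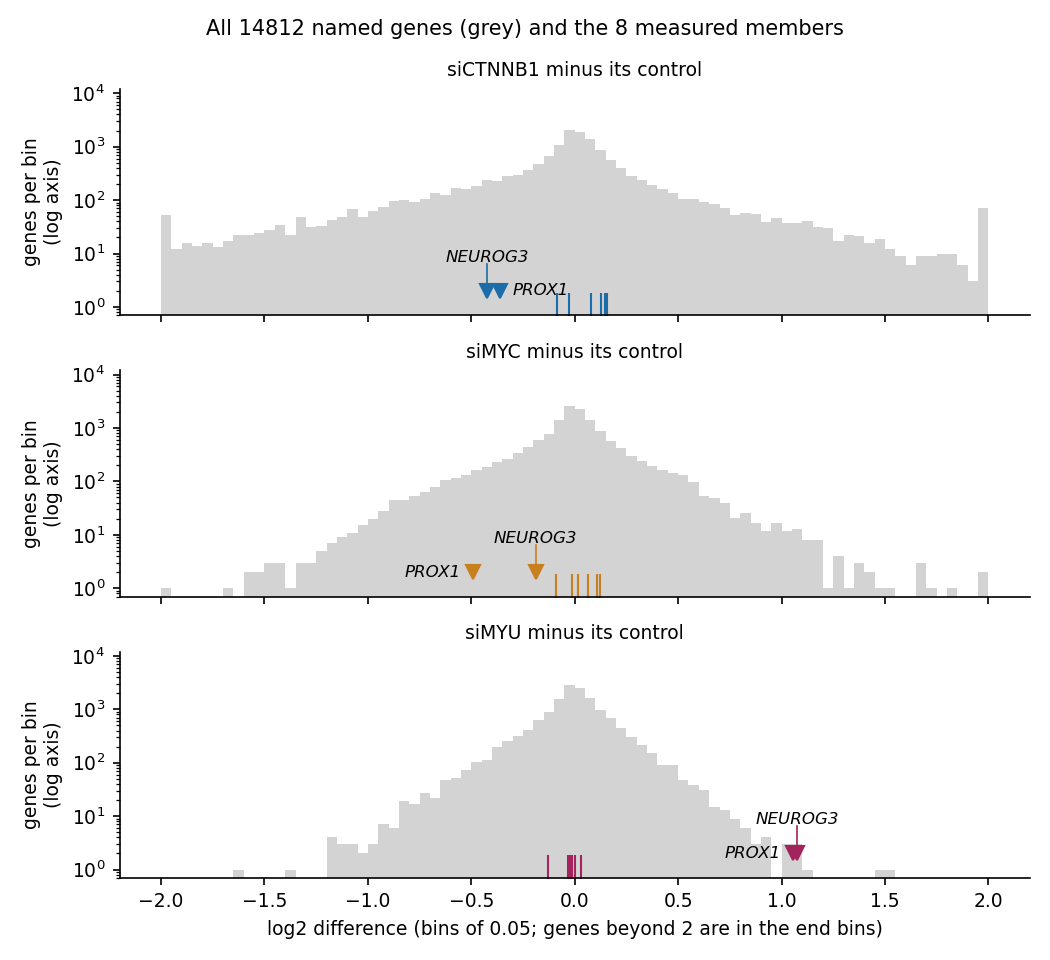
Distribution of the log2 difference over all 14812 named genes in each pair (grey, number of genes per bin on a log axis), with NEUROG3 and PROX1 as labelled triangles and the other 6 measured members as ticks. With siMYU both triangles lie in the upper tail, at ranks 4 and 6, and with siCTNNB1 and siMYC they lie on the left side, with between 5.23% and 16.8% of genes below them.

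The members differed in how far they moved between pairs. From its lowest to its highest pair PROX1 spanned 1.55 on the log2 scale and NEUROG3 1.498, and 97.7% and 97.4% of all genes had a smaller span. For PROX1 the lowest pair was siMYC and for NEUROG3 siCTNNB1. CHGA spanned 0.29, PYY 0.18, INSM1 0.15, GCG 0.09, SCG5 0.08 and CHGB 0.08. The share of genes with a smaller span was between 18.5% and 56.3% for these 6. The siMYU value helped to choose NEUROG3 and PROX1, so their wide span is a description.

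Ordered by value, the siMYU pair came above siMYC and siCTNNB1 for NEUROG3, and above siCTNNB1 and siMYC for PROX1. Whether neighbouring values in these orders differ cannot be told from 1 array a side. INSM1, CHGA and PYY were highest with siCTNNB1 and lowest with siMYU. SCG5 was highest with siMYC, and CHGB and GCG were highest with siMYU, at values of at most 0.00.

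Values in the siMYU pair moved with gene length, with a slope of -0.06 for each 10-fold increase in length over protein-coding genes. NEUROG3 is short at 1938 bases and PROX1 is 58360 bases long, by the GRCh38.p14 gene table. With the trend taken out, NEUROG3 was at 1.01 and PROX1 at 1.08, so their order turned while each stayed at least 2-fold higher. CHGA was then at -0.15 and INSM1 at -0.08.

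The measured genes next to NEUROG3 and PROX1 on their chromosomes are given by order, without their distances. On chromosome 10 the neighbours of NEUROG3 were TSPAN15 (0.04) and TACR2 (-0.17) on one side and FAM241B (0.06) and TYSND1 (-0.10) on the other, all with siMYU. On chromosome 1 those of PROX1 were ANGEL2 (-0.10) and VASH2 (-0.06) on one side and SMYD2 (-0.12) and ESRRG (0.04) on the other. These neighbours lay between -0.17 and 0.06 with siMYU. NEUROG3 and PROX1 were chosen for high values in that pair, so the contrast is a description. Whether a whole stretch differed was not tested. With siCTNNB1, ANGEL2 (-0.91) and SMYD2 (-0.71) lay lower than PROX1.

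The genes whose 3 differences were nearest to those of NEUROG3 were sought by Euclidean distance among 14811 genes over the 3 pairs. PROX1 was the nearest, at a distance of 0.31. SCARNA2, a small Cajal body RNA gene, came next at 0.32, with differences of -0.24, 0.07 and 1.03 for siCTNNB1, siMYC and siMYU. RAP1GAP2, the gene of a GTPase-activating protein for Rap1, followed at 0.37, then SAMM50, of the mitochondrial outer membrane sorting machinery, and the histone demethylase gene KDM4A, both at 0.40. For PROX1 the nearest was RAP1GAP2 at 0.23, with differences of -0.18, -0.42 and 0.92. NEUROG3 came next at 0.31, then LRRC61 at 0.37, the mitochondrial dehydrogenase gene HSD17B10 at 0.45 and CCDC43 at 0.49. NEUROG3 and PROX1 were chosen together for their siMYU values, which bring them close in this measure, and the siCTNNB1 and siMYC pairs may share a control array.

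Other transcription factors of secretory and endocrine cells were taken from a list of 35, of which 28 were measured. With siMYU 1 of the 28 was at least 1.5-fold higher and 0 were lower, against 0.668% and 1.21% of all genes, and the list's median was 0.02. That gene was ATOH1, the factor upstream of NEUROG3, at 0.63. HES6, which antagonises the Notch effector HES1, was at 0.45, and SOX4, a factor that in the mouse acts in endocrine and tuft cell formation, was at 0.41. TOX3, a high-mobility-group factor gene, was at -0.08.

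With siCTNNB1 ATOH1 was at -0.44, HES6 at -0.29 and SOX4 at -0.88, and with siMYC they were at -0.10, -0.42 and -0.47. These 3 factors thus had the same order of signs as NEUROG3 and PROX1, above 0 with siMYU and below 0 in the other pairs. NRARP, OLFM4, ASCL2, GAL and NMU, from other lists, had these signs too, and the genes with them were not counted. The 3 factors were named for the size of their differences in any pair and share the siMYU control with the members. The match is therefore given as values only. TOX3 did not follow it: it was at 1.60 with siCTNNB1, the only one of the 28 at least 2-fold higher there, against 2.80% of all genes, and at 0.04 with siMYC. Of the 28, SOX4 was the 1 gene at least 1.5-fold lower with siCTNNB1, against 9.80% of all genes. With siMYC 0 were 1.5-fold apart, against 2.15% of genes higher and 3.63% lower.

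**Figure D3:**
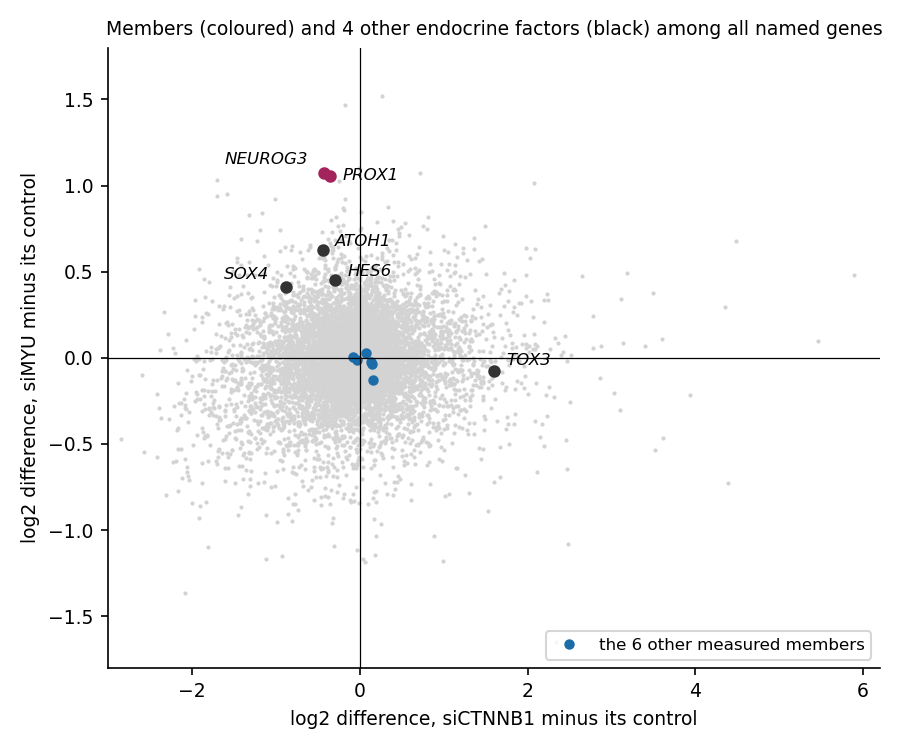
Log2 difference with siMYU (vertical axis) against that with siCTNNB1 (horizontal axis) for all named genes (grey), NEUROG3 and PROX1 (dark red), the 6 other measured members (blue) and the 4 other endocrine factors with the largest difference in any pair (black). NEUROG3, PROX1, ATOH1, HES6 and SOX4 lie above 0 with siMYU and below 0 with siCTNNB1, TOX3 lies at 1.60 with siCTNNB1, and the blue points lie near the origin.

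Other gut hormone genes were measured for 19 of 24 listed. With siMYU 0 of them were 1.5-fold apart, against 0.668% of all genes higher and 1.21% lower, so this count is near the background. Their median was 0.01, with a range of -0.13 to 0.34. The highest was GAL, the gene of the neuropeptide galanin, at 0.34, and NMU, which encodes neuromedin U, was at 0.23. With siCTNNB1 NMU was 2-fold lower at -1.15 and GAL was at -0.83, these being the 2 of 19 at least 1.5-fold lower, a share near the 9.80% of all genes, and the median was 0.02. With siMYC GAL was at -1.57, rank 3 from the lowest of 14812 genes, and NMU was at -0.14. GAL was the 1 gene of 19 at least 2-fold lower there and 0 were higher, against 0.446% and 0.412% of all genes. The other named hormones, UCN3 (urocortin 3) and MLN (motilin), were at 0.34 and 0.26 with siCTNNB1 and at 0.00 and -0.13 with siMYU.

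Granule and prohormone processing genes other than the members were measured for 27 of 44. With siMYU 0 of 27 were 1.5-fold apart, against 0.668% of all genes higher and 1.21% lower. All 27 lay between -0.27 and 0.22. PAM, which encodes the enzyme that amidates peptide hormones, was at 0.48 with siCTNNB1, 1.07 with siMYC and 0.22 with siMYU. CADPS, a priming factor gene for dense-core vesicles, was at 0.46, 0.97 and -0.10 in the same order. UNC13B, whose product primes vesicles for release, was at 1.18, 0.53 and -0.07. DDC, the gene of the decarboxylase that makes serotonin and dopamine, was at -1.07, -0.42 and 0.03. At 2-fold, UNC13B was the 1 gene of 27 higher and DDC the 1 gene lower with siCTNNB1, against 2.80% and 4.14% of all genes, so these counts are near the background. PAM was the 1 gene of 27 higher with siMYC, against 0.412% of all genes.

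A list of nutrient receptors and excitability genes, which also held hormone and adrenergic receptor genes, was measured for 18 of 32 genes. None was 2-fold apart in any pair. Of all genes, 2.80% were higher and 4.14% lower with siCTNNB1, 0.412% and 0.446% with siMYC, and 0.0608% and 0.0945% with siMYU. The list's medians were 0.06, 0.02 and 0.00 with siCTNNB1, siMYC and siMYU. GIPR, the receptor gene for the hormone GIP, was at 0.68 with siCTNNB1. ADRA2A, an adrenergic receptor gene, was at 0.39 with siMYU. FFAR3, a receptor gene for short-chain fatty acids, was at 0.31, 0.36 and -0.17, and the somatostatin receptor gene SSTR5 at 0.20, -0.33 and 0.10.

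**Figure D4:**
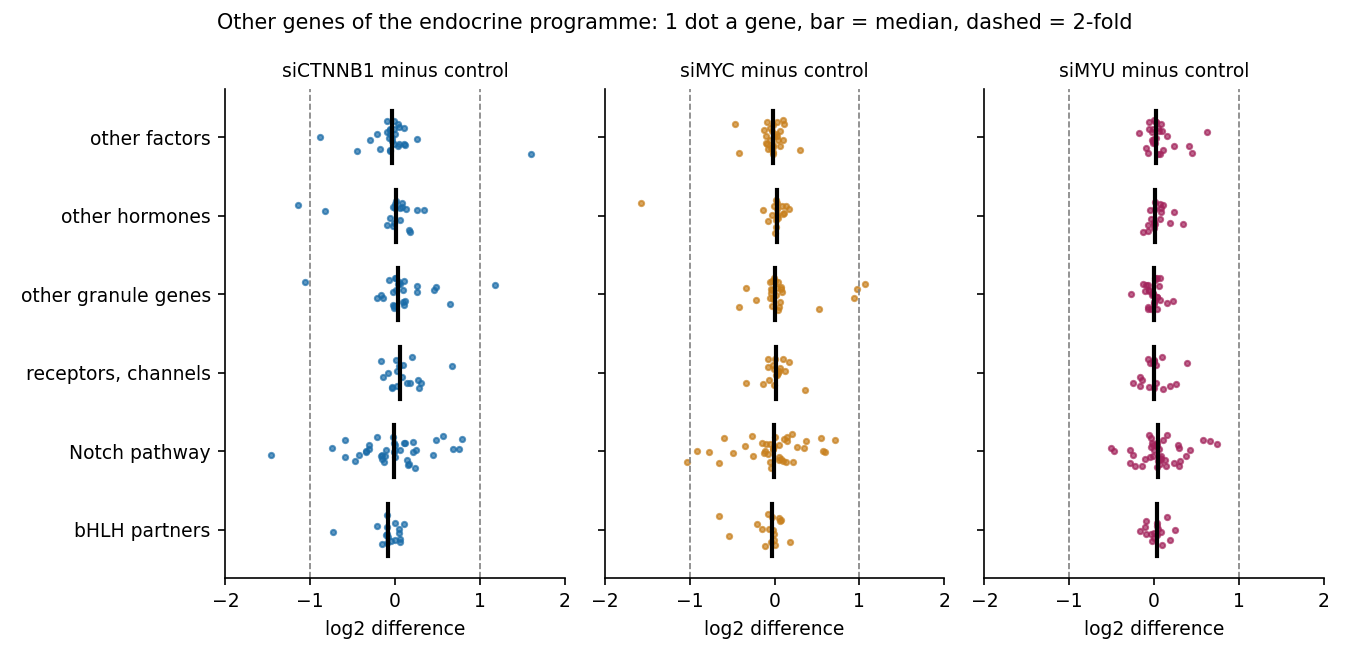
Log2 differences of the measured genes of 6 lists in each pair, 1 dot a gene, with the list median as a black bar and 2-fold as dashed lines. Medians of all 6 lists lie between -0.08 and 0.06, and with siMYU no dot lies beyond 2-fold.

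Notch signalling holds back the endocrine fate through HES repressors, and 39 of 42 listed Notch pathway genes were measured. HES1 itself has no listed probe set. NRARP, a Notch target that damps the pathway, was at -1.46 with siCTNNB1, -1.03 with siMYC and 0.58 with siMYU. It was the 1 gene of 39 at least 2-fold lower in each of the siCTNNB1 and siMYC pairs, against 4.14% and 0.446% of all genes. At 1.5-fold, 3 of 39 were higher and 4 lower with siCTNNB1, against 6.44% and 9.80% of all genes, and 2 were higher and 5 lower with siMYC, against 2.15% and 3.63%. With siMYU 2 of 39 were at least 1.5-fold higher and 0 lower, against 0.668% and 1.21% of all genes, with a median of 0.05. These 2, named after their values were seen, were RFNG (0.75), which encodes a glycosyltransferase acting on Notch receptors, and OLFM4 (0.66), a crypt progenitor gene. OLFM4 was at -0.59 with siCTNNB1 and -0.26 with siMYC, and RFNG at 0.45 and 0.11.

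MIB1, the gene of a ubiquitin ligase that activates Notch ligands, was at 0.14, -0.91 and 0.03 with siCTNNB1, siMYC and siMYU. The Notch sheddase gene ADAM17 was at -0.21, -0.77 and -0.28. The gamma-secretase subunit gene APH1A was at 0.79, 0.59 and 0.30. The list therefore held genes on either side of 0 in every pair, and its medians with siCTNNB1 and siMYC were -0.01 and -0.01.

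NEUROG3 binds DNA with E proteins as partners. Of 22 listed bHLH partners and inhibitors 17 were measured, and the ID genes, whose products block such dimers, have no listed probe set. With siMYU 0 of 17 were 1.5-fold apart, against 0.668% of all genes higher and 1.21% lower. The E protein genes TCF3, TCF4 and TCF12 were at -0.09, 0.25 and -0.16 with siMYU, at -0.21, -0.09 and -0.09 with siCTNNB1 and at -0.66, -0.11 and -0.21 with siMYC. ASCL2, a bHLH factor of crypt stem cells, was at -0.73 with siCTNNB1, -0.54 with siMYC and 0.19 with siMYU.

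Markers of other cells were read beside the siMYU values of NEUROG3 and PROX1. PROX1 also marks lymphatic endothelium. Of 11 measured genes on that list 0 were at least 1.5-fold higher with siMYU and 1 was lower, against 0.668% and 1.21% of all genes. The list's median was 0.02, with 8 genes above 0 and 3 below. The lymphatic genes PDPN and FLT4 were at -0.12 and -0.02. LYVE1 and CCL21, named after their values were seen, were at 0.06 and 0.08. EFNB2, an ephrin gene of arterial endothelium that epithelia also use, was at -0.66 with siMYU and 2.12 with siCTNNB1. HDAC3, a histone deacetylase gene included as a PROX1 partner, was at 0.33 with siMYU.

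Of 6 measured neuronal markers 0 were 1.5-fold apart in any pair. Of all genes, 6.44% were higher and 9.80% lower with siCTNNB1, 2.15% and 3.63% with siMYC, and 0.668% and 1.21% with siMYU. The largest value of a neuronal marker was MAP2 with siMYC, at 0.36, and with siMYU these markers lay between -0.14 and 0.16. Of 13 goblet, Paneth and tuft markers 1 was at least 1.5-fold higher with siMYU, against 0.668% of all genes. This was the lysozyme gene LYZ at 0.74, named, as was CA4, after its value was seen. SPDEF was at 0.37, TFF3 at 0.32, ZG16 at 0.30 and AGR2 at -0.44. Of 14 enterocyte markers 1 was 1.5-fold lower with siMYU, KRT20 at -0.73, against 1.21% of all genes, and CEACAM7 was at 0.48. Among 8 epithelial markers GPA33, an antigen of colon epithelium, was at -0.80, while EPCAM was at 0.09 and KRT19 at 0.08. The part of these shifts in the values of NEUROG3 and PROX1 was not tested.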

How the data were processed

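Total RNA from 6 LS180 samples was labelled with biotin and hybridised to Affymetrix arrays, per the labels' protocols. For background correction, normalization and summarisation no method is given in the sources used here. Log2 values were deposited, centred by the authors within each knockdown and control pair, as read from the values, which sum to 0 within 1e-06. Log base 2 was assumed, as no source states it. A pair therefore keeps 1 difference per probe set, and no test was run.

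Of 44629 probe sets 15835 have a listed gene. Names, gene types and lengths came from the GRCh38.p14 gene table, giving 14812 genes, and several probe sets of a gene were averaged. Members and lists were chosen with earlier results of these data known. List genes without a listed probe set were not analysed here. Named were all measured members, the targeted transcripts, up to 4 genes per list with the largest absolute difference in any pair, and the 5 genes nearest to NEUROG3 and to PROX1. Alternatives were the probe set nearest to or farthest from 0, centring on the median, removal of the length trend, a 1.5-fold threshold and all probe sets. The number of arrays limits the precision. The code was tested on simulated data. Python 3.11.15, numpy 2.4.6, pandas 2.3.3 and matplotlib 3.10.9 were used.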

Additional observations from a re-analysis of the deposited data

How the results depend on the processing

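Each of the 8 measured members has 1 probe set, so the choice among probe sets moved none of their values. Centring on the median of all probe sets shifted them by at most 0.01, and removal of the length trend by at most 0.06. Of 96 recomputed member values 95 moved by less than the median standard deviation between probe sets of a gene (0.10, 0.08 and 0.06 in the siCTNNB1, siMYC and siMYU pairs). That count includes values that could not move. These are the probe set choices, and centring with siMYC and siMYU, where the median was 0.00. It therefore says little of robustness. The exception was NEUROG3 with siMYU, at 1.01 without the length trend. Among the members and the genes named from the lists, none that was 1.5-fold apart changed sign. Each of these genes has 1 probe set, so the probe set choices could not move it, and this too says little of robustness. The targeted transcripts and the nearest genes were not part of that check. Of the list medians, 144 of 144 moved by less than the spread between probe sets, but most list genes also have 1 probe set. Members 2-fold apart numbered 0, 0 and 2 with siCTNNB1, siMYC and siMYU, and the same at 1.5-fold. Over all genes the counts at 2-fold were 1028, 127 and 23. At 1.5-fold they were 2406, 857 and 278, and over all probe sets, named or not, 1756, 269 and 48 at 2-fold. No paired analysis was possible because the values are already differences within pairs and each group has 1 array. Signal over background could not be read from centred values.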
